A study of Marchantia polymorpha with 9 samples.

Results

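The 4 genes described here carry neighbouring numbers on scaffold 9 of the Marchantia polymorpha genome. They are the phenylalanine ammonia lyase (PAL) gene Mapoly0009s0173 and the polyketide/chalcone synthase (CHS) genes Mapoly0009s0174, Mapoly0009s0178 and Mapoly0009s0179. They were chosen by identifier, 4 of the 19287 genes of the expression table, and not by a rule on their expression values. Earlier results of these data were known when they were chosen. The annotation is that of the study's list of 82 genes of the shikimate and phenylpropanoid pathways. A further gene of that list, Mapoly0009s0180, has the next number and is also annotated as CHS. It was not among the chosen genes and is given beside them.

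RNA-Seq was performed on 3-week-old thalli, the flat plant body of this liverwort, of MpGL3ox#3, MpGL3ox#2 and wild-type Tak-1, a male strain. Both lines were made in Tak-1 and carry a fusion of the fluorescent protein Citrine with MpGL3, the gene that the study names MpBHLH12, under a constitutive promoter. Each line is 1 independent transformant and Tak-1 is untransformed, so an effect of MpGL3 and an effect of transformation or of the insertion site cannot be told apart within a line. All plants were untreated and grown under continuous light, and each sample was RNA from several pieces of thallus. By the labels, 3 samples were taken per group, but the values analysed here are the authors' averages, 1 for each group. From these averages neither replicate spread nor library depth is known, no difference below has a replicate check, and no p-value was computed.

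The values are FPKM, fragments scaled to gene length and to the fragments of the library, so that levels of different genes can be set side by side. Differences are given as log2(FPKM + 1) of one group minus another, which understates the difference of genes with low FPKM. A size of 0.5 on this scale was used for counting. Against Tak-1, MpGL3 itself (Mapoly0031s0161) was 23.4 times as high in MpGL3ox#3 and 27.0 times as high in MpGL3ox#2. The genes tested below are the 13324 genes that reached 1 FPKM in at least 1 group. Their median difference against Tak-1 was 0.0038 for MpGL3ox#3 and 0.0020 for MpGL3ox#2, and it was 0.013 for MpGL3ox#3 minus MpGL3ox#2. No large shift of the medians thus separated the columns. Between the lines, more of these genes were higher in MpGL3ox#3 by 0.5 or more (2.34%) than lower (1.19%).

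PAL removes ammonia from phenylalanine to give cinnamic acid, the step by which carbon leaves amino acid metabolism for phenylpropanoids. Cinnamate 4-hydroxylase (C4H) and 4-coumaroyl-CoA ligase (4CL) turn cinnamic acid into 4-coumaroyl-CoA. CHS, a type III polyketide synthase, extends this ester with malonyl-CoA units to chalcone, and chalcone isomerase (CHI) closes the ring to a flavanone, the precursor of flavones and other flavonoids. Other enzymes of the CHS family use other starters, so the annotation polyketide/chalcone synthase does not name a substrate. In liverworts such phenolics include flavones, the cell wall-bound pigment riccionidin and bisbibenzyls such as marchantins.

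At the entry step, the PAL gene Mapoly0009s0173 was barely expressed. It had 1.60 FPKM in MpGL3ox#3, 1.34 FPKM in MpGL3ox#2 and 1.36 FPKM in Tak-1. Its level ranked 10 of the 10 listed PAL genes in each of the 3 groups. It made up 0.429% of the summed FPKM of the listed PAL genes in MpGL3ox#3, 0.373% in MpGL3ox#2 and 0.598% in Tak-1. The sum of the family was 372.4 FPKM in MpGL3ox#3, 358.6 FPKM in MpGL3ox#2 and 227.2 FPKM in Tak-1. The PAL gene with the highest mean level over the 3 groups, Mapoly0132s0049, had 161.0 FPKM in MpGL3ox#3, 155.1 FPKM in MpGL3ox#2 and 53.6 FPKM in Tak-1. In Tak-1 alone it ranked 2, below Mapoly0005s0089. That gene had 85.0 FPKM in MpGL3ox#3, 85.2 FPKM in MpGL3ox#2 and 75.6 FPKM in Tak-1. Thus, by these averages nearly all of the summed FPKM of the 10 listed PAL genes belonged to the other genes of the list. How reads shared between copies were assigned is not stated in the sources used here. In RNA from whole pieces of thallus, fewer cells expressing a gene and less RNA per cell cannot be told apart.

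Among the CHS genes, Mapoly0009s0174 was the most highly expressed of the 3. It had 49.4 FPKM in MpGL3ox#3, 39.8 FPKM in MpGL3ox#2 and 40.4 FPKM in Tak-1. It ranked 9 in MpGL3ox#3, 11 in MpGL3ox#2 and 7 in Tak-1 among the 24 listed CHS genes. In Tak-1 its level was reached or exceeded by 13.2% of all genes.

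Mapoly0009s0178 was intermediate. It had 24.0 FPKM in MpGL3ox#3, 15.9 FPKM in MpGL3ox#2 and 15.3 FPKM in Tak-1. The level in MpGL3ox#3 stood apart from the other groups, which lay close together. Mapoly0009s0179, which carries the next number, had 2.02 FPKM in MpGL3ox#3, 1.31 FPKM in MpGL3ox#2 and 1.42 FPKM in Tak-1. It ranked 19 of 24 in each group, the lowest of the 19 listed CHS genes that reached 1 FPKM. In Tak-1 the level of Mapoly0009s0178 was 10.8 times that of Mapoly0009s0179, and that of Mapoly0009s0174 was 2.64 times that of Mapoly0009s0178.

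Mapoly0009s0180 exceeded all of them, with 79.0 FPKM in MpGL3ox#3, 65.3 FPKM in MpGL3ox#2 and 60.0 FPKM in Tak-1. It alone made up 51.2% of the summed FPKM of the 4 CHS genes of this stretch in both MpGL3ox#3 and Tak-1, and 53.4% in MpGL3ox#2. The order Mapoly0009s0180, Mapoly0009s0174 and Mapoly0009s0178 was the same in the 3 groups. The order of Mapoly0009s0173 and Mapoly0009s0179 was not, and their levels lay close to each other in Tak-1 and MpGL3ox#2. Without replicate values it is not known which of these neighbours in order differ beyond their spread. Reads shared between copies of a gene family would also make the level of a single copy uncertain, and the sources used here do not say how such reads were assigned.

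**Figure D1:**
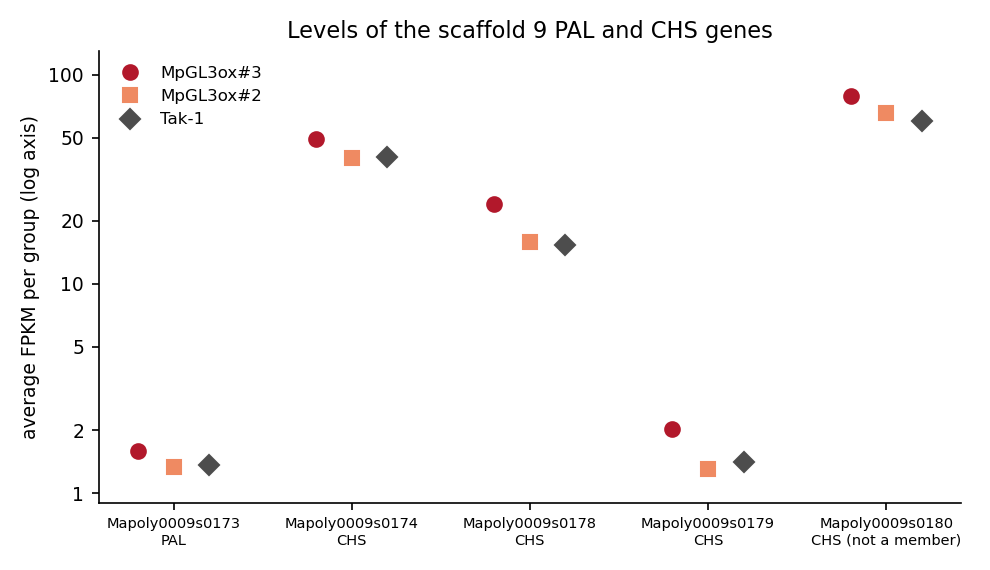
Average FPKM per group (log axis) of the 4 scaffold 9 genes and of Mapoly0009s0180, with 1 point for each of MpGL3ox#3 (circles), MpGL3ox#2 (squares) and Tak-1 (diamonds) and no error bars, since the table holds averages. The levels ranged from 1.31 FPKM for Mapoly0009s0179 in MpGL3ox#2 to 79.0 FPKM for Mapoly0009s0180 in MpGL3ox#3, and each gene was highest in MpGL3ox#3.

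In MpGL3ox#3 against Tak-1, 4 of the 4 genes were higher. The difference was 0.14 for Mapoly0009s0173, 0.28 for Mapoly0009s0174, 0.61 for Mapoly0009s0178 and 0.32 for Mapoly0009s0179. On FPKM without a pseudocount, MpGL3ox#3 was 17.7% higher for Mapoly0009s0173 and 22.2% higher for Mapoly0009s0174. It was 56.6% higher for Mapoly0009s0178 and 42.6% higher for Mapoly0009s0179. By the size of 0.5, 1 of the 4 genes was called higher, Mapoly0009s0178, while 9.68% of all genes tested were called higher and 6.15% lower. At the smaller size of 0.25, 3 of the 4 were called higher, against 19.6% of all genes. The median difference of the 4 genes was 0.30, that of all 13324 genes 0.0038. Of all genes 50.8% were higher in this comparison by any size.

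In MpGL3ox#2 against Tak-1, the same genes were near the wild-type level. The difference was -0.01 for Mapoly0009s0173, -0.02 for Mapoly0009s0174, 0.05 for Mapoly0009s0178 and -0.07 for Mapoly0009s0179. On FPKM the largest of these differences was that of Mapoly0009s0179, at -7.61% in MpGL3ox#2 relative to Tak-1. By any size, 1 of the 4 was higher, against 50.4% of all genes. None of the 4 genes was called at the size of 0.5 or at 0.25 (0 of 4), where 8.04% of all genes were called higher and 7.38% lower at 0.5, and 18.1% higher at 0.25. Their median was -0.02, against 0.0020 over all genes. Both line comparisons use the same Tak-1 average, so they are not independent of each other.

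Compared directly, MpGL3ox#3 was higher than MpGL3ox#2 in 4 of the 4 genes, and 53.8% of all genes were higher in this comparison. The difference was 0.15 for Mapoly0009s0173, 0.30 for Mapoly0009s0174, 0.56 for Mapoly0009s0178 and 0.39 for Mapoly0009s0179. A difference at least as large as that of Mapoly0009s0178 was found in 1.89% of the genes tested, as large as that of Mapoly0009s0179 in 3.96%, and as large as that of Mapoly0009s0174 in 6.09%. For Mapoly0009s0173 this share was 18.2%. By the size of 0.5, 1 of the 4 genes was called higher in MpGL3ox#3 than in MpGL3ox#2, Mapoly0009s0178, with 2.34% of all genes called higher and 1.19% lower. At 0.25, 3 of the 4 were called higher, against 8.86%. The median was 0.35, against 0.01 over all genes. Mapoly0009s0180 was also highest in MpGL3ox#3. Its difference was 0.39 in MpGL3ox#3 and 0.12 in MpGL3ox#2 against Tak-1, and 0.27 between the lines.

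The low levels of Mapoly0009s0173 and Mapoly0009s0179 limit what the size of 0.5 can show. With a pseudocount of 1, a line needs 2.33 FPKM to be called higher for Mapoly0009s0173 and 2.42 FPKM for Mapoly0009s0179. MpGL3ox#3 was 54.4% above MpGL3ox#2 for Mapoly0009s0179, a larger ratio than the 50.5% of Mapoly0009s0178, and yet only Mapoly0009s0178 passed the size.

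The numbers between the chosen genes and on either side served as background. Of Mapoly0009s0175, Mapoly0009s0176 and Mapoly0009s0177, which lie between Mapoly0009s0174 and Mapoly0009s0178, only the first was expressed at 1 FPKM or more. Mapoly0009s0175 had 30.1 FPKM in MpGL3ox#3, 31.1 FPKM in MpGL3ox#2 and 23.0 FPKM in Tak-1. It was thus higher in both lines, by 0.37 in MpGL3ox#3 and 0.42 in MpGL3ox#2, and differed between the lines by -0.05. Mapoly0009s0176 was listed at 0 in the 3 groups, and Mapoly0009s0177 had at most 0.109 FPKM. The 4 chosen genes were highest in MpGL3ox#3, whereas the expressed gene in between was close to level between the lines.

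Of the 10 genes with the 5 numbers on either side, from Mapoly0009s0168 to Mapoly0009s0172 and from Mapoly0009s0181 to Mapoly0009s0185, 4 reached 1 FPKM. Their differences between MpGL3ox#3 and MpGL3ox#2 ranged from -0.08 to 0.04, below those of each of the 4 PAL and CHS genes. Mapoly0009s0184 had 55.8 FPKM in MpGL3ox#3, 54.2 FPKM in MpGL3ox#2 and 38.3 FPKM in Tak-1, a difference from Tak-1 of 0.53 in MpGL3ox#3 and 0.49 in MpGL3ox#2. Mapoly0009s0168, the most abundant of the flanking genes, was level, with 232.6 FPKM in MpGL3ox#3, 234.6 FPKM in MpGL3ox#2 and 232.9 FPKM in Tak-1. The sources used here give no annotation for these background genes. Over the expressed ones among the 241 other genes of scaffold 9, the median difference was 0.01 for MpGL3ox#3 and -0.01 for MpGL3ox#2 against Tak-1. Between the lines it was 0.0045, and 3 of these genes were higher and 3 lower in MpGL3ox#3 by 0.5 or more.

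**Figure D2:**
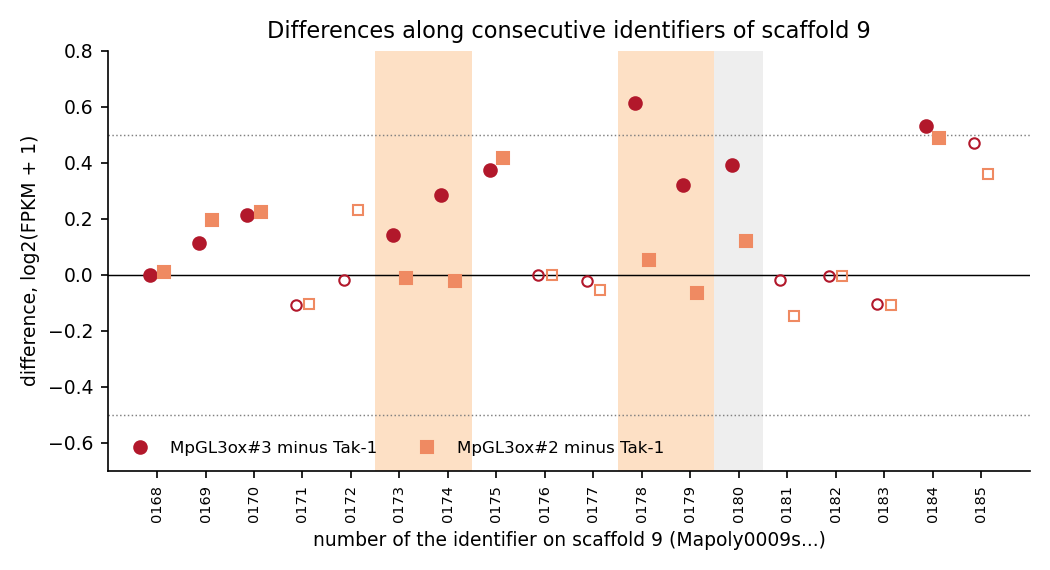
Difference from Tak-1 on the log2(FPKM + 1) scale for MpGL3ox#3 (circles) and MpGL3ox#2 (squares) along 18 consecutive identifiers of scaffold 9, without error bars. Shaded columns are the 4 PAL and CHS genes (orange) and Mapoly0009s0180 (grey), open symbols are genes under 1 FPKM in every group, and dotted lines mark 0.5 and -0.5. In the shaded columns MpGL3ox#3 lies above MpGL3ox#2, whereas Mapoly0009s0175 and Mapoly0009s0184 are raised by like amounts in both.

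The remaining listed genes of the pathway give the setting. The summed FPKM of the 24 listed CHS genes was 1540 in MpGL3ox#3, 1558 in MpGL3ox#2 and 791.2 in Tak-1. The 3 chosen CHS genes of scaffold 9 summed to 75.4 FPKM in MpGL3ox#3, 57.1 FPKM in MpGL3ox#2 and 57.2 FPKM in Tak-1. Their share of the family was 4.90% in MpGL3ox#3, 3.66% in MpGL3ox#2 and 7.22% in Tak-1. The share was lower in both lines, while the sum was higher in MpGL3ox#3 and close to that of Tak-1 in MpGL3ox#2, and the sum of the whole family was higher in both. The 7 listed CHS genes with numbers 60 to 72 on scaffold 70 made up 53.7% in MpGL3ox#3, 60.5% in MpGL3ox#2 and 44.6% in Tak-1. Mapoly0070s0036, a listed CHS gene of scaffold 70 outside these numbers, had 253.6 FPKM in MpGL3ox#3, 216.3 FPKM in MpGL3ox#2 and 63.9 FPKM in Tak-1.

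**Figure D3:**
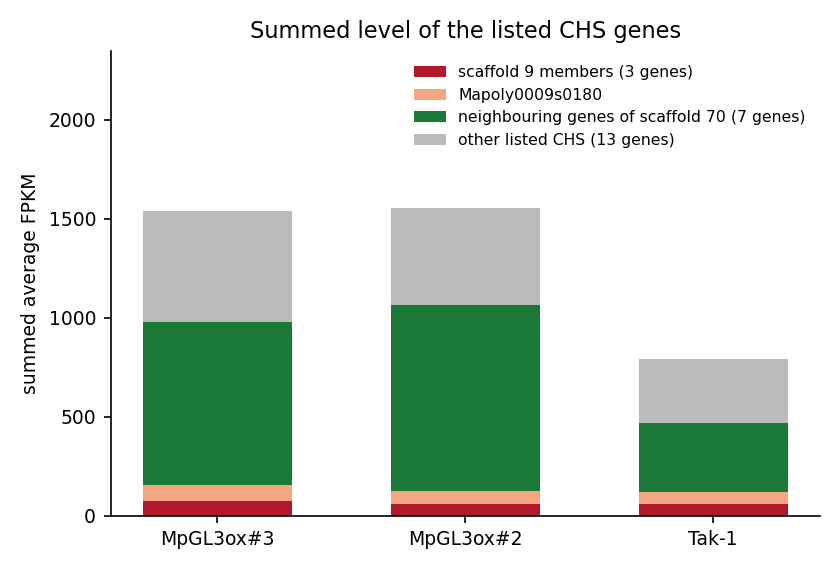
Summed average FPKM of the 24 listed CHS genes in MpGL3ox#3, MpGL3ox#2 and Tak-1, stacked by location, with no error bars. The 3 chosen scaffold 9 genes (dark red) hold 75.4 FPKM in MpGL3ox#3, 57.1 FPKM in MpGL3ox#2 and 57.2 FPKM in Tak-1. The 7 scaffold 70 genes with numbers 60 to 72 (green) hold 826.3 FPKM in MpGL3ox#3, 942.9 FPKM in MpGL3ox#2 and 353.1 FPKM in Tak-1. Number 36 of scaffold 70 is counted with the other listed CHS genes (grey).

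A longer run of neighbouring PAL and CHS numbers in the list is that of scaffold 70. All 11 genes listed there with numbers 60 to 72 were higher than Tak-1 in both lines, and 9 of them were called higher at the size of 0.5 in MpGL3ox#3 and 9 in MpGL3ox#2. Of all genes tested, 50.8% were higher by any size in MpGL3ox#3 and 50.4% in MpGL3ox#2. At the size of 0.5, 9.68% were called higher in MpGL3ox#3 and 8.04% in MpGL3ox#2. The median difference from Tak-1 in MpGL3ox#3 was 0.30 for the scaffold 9 genes and 0.81 for those of scaffold 70. In MpGL3ox#2 it was -0.02 for the scaffold 9 genes and 0.66 for those of scaffold 70. Between the lines the median was 0.35 for the scaffold 9 genes and 0.0022 for those of scaffold 70, of which 7 were higher and 4 lower in MpGL3ox#3. The sets differ in make-up, with 1 PAL and 3 CHS genes on scaffold 9 and 4 PAL and 7 CHS genes on scaffold 70. For CHS alone the median between the lines was 0.39 for the chosen scaffold 9 genes and 0.08 for those of scaffold 70. For PAL it was 0.15 for Mapoly0009s0173 and 0.0015 for the scaffold 70 genes. In this comparison 53.8% of all genes tested were higher. The values of the scaffold 70 genes between the lines ranged from -0.27 for Mapoly0070s0062 to 0.40 for Mapoly0070s0064, so the range overlapped that of the scaffold 9 genes. With 1 average per group, the difference between the scaffolds could not be tested.

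**Figure D4:**
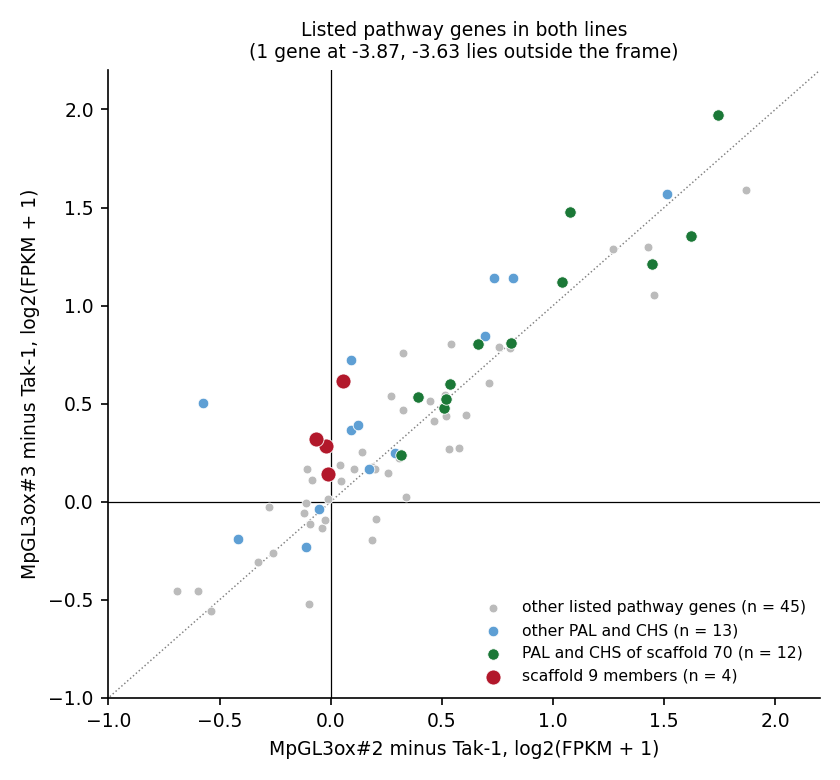
Difference from Tak-1 of the listed pathway genes that reached 1 FPKM, MpGL3ox#2 on the x axis and MpGL3ox#3 on the y axis, both as log2(FPKM + 1), with equality as the dotted line. The 4 scaffold 9 genes (dark red) lie near 0 for MpGL3ox#2 and between 0.14 and 0.61 for MpGL3ox#3. The scaffold 70 genes (green, number 36 included) lie on either side of the line, from -0.27 below to 0.40 above it. Both axes share the Tak-1 average.

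An MpGL3ox#3 value at least 0.5 above Tak-1 together with an MpGL3ox#2 value within 0.5 of it was found in 6 of the 74 listed genes with 1 FPKM or more, Mapoly0009s0178 among them, and in 3.47% of all genes. The reverse pattern was found in 5 of the 74, against 1.87% of all genes. Another 22 of the 74 were higher by 0.5 or more in both lines, against 6.16% of all genes. The counts of 6 and 5 also take in genes close to the size in both lines. Mapoly0022s0188 was at 0.51 in MpGL3ox#3 and 0.44 in MpGL3ox#2, and Mapoly0070s0068 at 0.48 in MpGL3ox#3 and 0.51 in MpGL3ox#2. They are thus not counts of genes raised in 1 line only. Of the other 73 expressed genes of the list, the 3 nearest to Mapoly0009s0178 in both differences from Tak-1, by Euclidean distance over the 2 values, were Mapoly0041s0118, Mapoly0081s0009 and Mapoly0009s0180. The CHS gene Mapoly0041s0118 had 18.4 FPKM in MpGL3ox#3, 11.5 FPKM in MpGL3ox#2 and 10.8 FPKM in Tak-1, at a distance of 0.12. The C4H gene Mapoly0081s0009 had 17.7 FPKM in MpGL3ox#3, 14.5 FPKM in MpGL3ox#2 and 11.8 FPKM in Tak-1, at a distance of 0.23. Likeness over 3 averages describes these columns only.

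At the PAL, CHS, C4H, 4CL and CHI steps, the difference between the lines was as follows. In the 9 other PAL genes the median of MpGL3ox#3 minus MpGL3ox#2 was 0.01, and 7 of the 9 were higher in MpGL3ox#3. The value farthest from 0 was 1.08, for Mapoly0044s0114, which had 5.12 FPKM in MpGL3ox#3, 1.90 FPKM in MpGL3ox#2 and 3.31 FPKM in Tak-1. In the 16 other expressed CHS genes the median was 0.15, and 11 were higher in MpGL3ox#3. For the 7 of these outside scaffolds 9 and 70 it was 0.22, with 5 higher and 2 lower. The 3 C4H genes were higher in MpGL3ox#3, by 0.03 to 0.27, and of the 3 4CL genes 1 was. The 2 genes annotated as CHI or CHI-like were lower in MpGL3ox#3 than in MpGL3ox#2, with differences of -0.29 and -0.11. A higher level in MpGL3ox#3 than in MpGL3ox#2 was thus also seen in 5 of the 7 expressed CHS genes outside scaffolds 9 and 70. It was likewise seen in 53.8% of all genes tested, beside which the counts of this paragraph are small and were not tested.

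**Figure D5:**
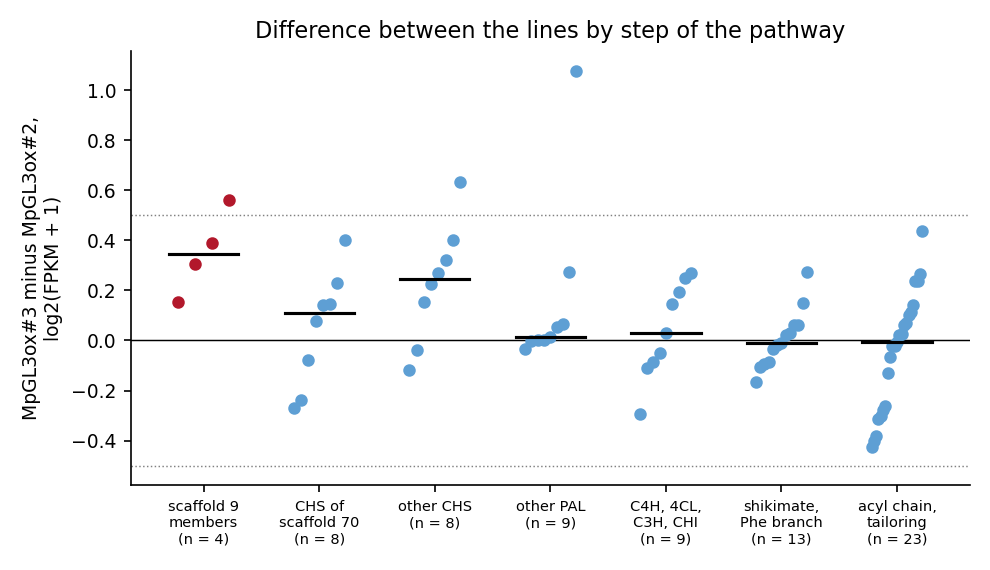
MpGL3ox#3 minus MpGL3ox#2 on the log2(FPKM + 1) scale for listed genes that reached 1 FPKM, 1 point per gene, grouped by step of the pathway, with the median as a black bar and dotted lines at 0.5 and -0.5. The scaffold 9 genes had a median of 0.35, the CHS genes of scaffold 70 (number 36 included) 0.11 and the other CHS genes, Mapoly0009s0180 included, 0.25, with the points of these groups overlapping.

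Against Tak-1, the genes of highest mean level at the remaining steps were higher in both lines for C4H and 4CL. The C4H gene Mapoly0163s0018 had 342.5 FPKM in MpGL3ox#3, 335.4 FPKM in MpGL3ox#2 and 197.8 FPKM in Tak-1. The 4CL gene Mapoly0197s0014 had 89.3 FPKM in MpGL3ox#3, 92.6 FPKM in MpGL3ox#2 and 66.9 FPKM in Tak-1. The highest CHI gene, Mapoly0167s0012, had 48.6 FPKM in MpGL3ox#3, 59.8 FPKM in MpGL3ox#2 and 51.7 FPKM in Tak-1, and so was above Tak-1 in MpGL3ox#2 only. The highest CHS gene, Mapoly0070s0062, had 462.5 FPKM in MpGL3ox#3, 557.1 FPKM in MpGL3ox#2 and 180.4 FPKM in Tak-1. In the whole list, 29 of the 74 expressed genes exceeded Tak-1 by 0.5 or more in MpGL3ox#3 and 3 were lower by that size, and 27 were higher and 5 lower in MpGL3ox#2. Of all genes tested, 9.68% were higher and 6.15% lower by that size in MpGL3ox#3, and 8.04% higher and 7.38% lower in MpGL3ox#2. The scaffold 9 genes contributed 1 to the count of MpGL3ox#3 and 0 to that of MpGL3ox#2.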

How the data were processed

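RNA-Seq libraries of thalli of MpGL3ox#3, MpGL3ox#2 and Tak-1 were mapped by the authors with Bowtie2 to the JGI 3.1 genome, and fragments were determined with HTSeq. Cuffdiff 2.2.1 also stands in the submitters' processing notes. The deposited FPKM are the authors' averages, 1 column for each group. For the annotation, the filters and the program behind the FPKM, nothing is stated in the sources used here.

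The columns were used as deposited. Differences were computed as log2(FPKM + 1) over the whole table, and genes reaching 1 FPKM in at least 1 group were counted at a size of 0.5. For a table with 1 value per group the plan was this count, without a test. A linear model was planned only for replicate columns, which the table does not hold. Genes named were the 4 members, Mapoly0009s0180, the identifiers in between, 5 on either side, MpGL3, the 3 pathway genes most like Mapoly0009s0178 and the highest gene of the PAL, CHS, C4H, 4CL and CHI classes. Mapoly0044s0114, Mapoly0070s0064, Mapoly0005s0089, Mapoly0022s0188, Mapoly0070s0068 and Mapoly0070s0036 were named after their values were seen. Members, list and rules were chosen with earlier results of these data known. Identifiers stayed as deposited, since 0 were found in the reference table (assembly MpTak2_v7.1), and so no sequence or position is given. The computation was tested on simulated data whose planted changes were larger than those of the 4 genes. The simulated starting levels were above those of Mapoly0009s0173 and Mapoly0009s0179, so low levels and small differences were not covered. Python 3.11.15, numpy 2.4.6, pandas 2.3.3 and matplotlib 3.10.9 were used.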

Additional observations from a re-analysis of the deposited data

How the results depend on the processing

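No paired analysis was possible because only averages of each group were analysed, without replicate columns, and leaving out each replicate was not run for the same reason. With no replicate spread, a shift of 0.1 on the log2 scale, or of 5 percentage points in a share, was taken as a move. The median difference of the 4 genes in MpGL3ox#3 against Tak-1, 0.30, was 0.20 with a pseudocount of 5 and 0.45 over the members whose mean was at least 5 FPKM. Between MpGL3ox#3 and MpGL3ox#2 the median, 0.35, was 0.45 with a pseudocount of 0.1, 0.22 with 5 and 0.45 without a pseudocount. The number of genes called, 1 in MpGL3ox#3 against Tak-1, was 3 at a size of 0.25, 0 at a size of 1 and 2 without a pseudocount. Between the lines it was 3 at a size of 0.25, 0 at a size of 1, 2 with a pseudocount of 0.1, 0 with 5 and 2 without a pseudocount. Such counts go down by construction as the size or the pseudocount grows. In MpGL3ox#2 against Tak-1 the count was 0 under each alternative run. The CHS share in Tak-1, 7.22%, was 14.8% with Mapoly0009s0180 added, which adds a gene by construction. Rescaling moved no median by 0.1 or more and no count. The setting without a pseudocount and the addition of Mapoly0009s0180 to the medians and counts were chosen after seeing the data.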
